A study of Homo sapiens with 4 samples.

Results

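The annexins were followed in the RNA of MDA-MB-468 cells, a triple-negative breast cancer line, after treatment with MS1943. They were taken as the 10 annexin genes named in a fixed list, ANXA1 to ANXA9 and ANXA11, out of 56865 genes with a listed transcript. MS1943 is a small molecule that degrades EZH2, the enzyme in the Polycomb group that methylates lysine 27 of histone H3 and so keeps genes silent. Poly(A) RNA of 4 libraries was sequenced. The treated group held 2 libraries of cells given 5 µM MS1943 for 3 days, and the other group held 2 libraries of cells given the solvent DMSO, for which the labels name no separate time. All cells were of passage 12 of the same line, with no engineered allele stated. The duplicates were separate dishes as far as the labels describe the seeding, so p-values measure the spread between dishes, part of which may be technical.

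Annexins are cytosolic proteins that bind phospholipid membranes when calcium rises, through repeated calcium-binding annexin domains. They are known for bridging and patching membranes, for steering vesicle traffic and, when released, for signalling to other cells. ANXA1 and ANXA2 carry N-terminal tails that bind S100 proteins, ANXA1 is also a ligand of formyl peptide receptors, and ANXA5 is widely used as a probe because it binds phosphatidylserine on dying cells.

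The libraries held 69878745 and 47564377 estimated reads with MS1943, and 64720699 and 71378893 with DMSO. Levels are given as CPM (a gene's reads as a share of the library's), scaled by TMM, an edgeR factor that corrects for library composition, and tests are edgeR's quasi-likelihood F test with Benjamini-Hochberg adjustment over 19358 tested genes. A gene is called higher or lower at an adjusted p under 0.05. EZH2 itself had 104 and 108 CPM with MS1943, against 126 and 117 CPM with DMSO, a log2 fold change of -0.19 ± 0.06 (SE) with an edgeR adjusted p of 0.00605; it was -0.31 with scaling to total reads and -0.33 by limma on log2(TPM + 1), and this measures the transcript and not the protein that MS1943 acts on. Libraries of the same treatment correlated at a Pearson r of 0.999 across genes on log2(CPM + 1), and libraries of different treatments at 0.976 to 0.977. Mitochondrially encoded genes held 3.52% and 3.11% of reads with MS1943 and 1.65% and 1.78% with DMSO; each annexin gene kept its call after these genes were left out, an alternative added after seeing the data. Of the epithelial markers KRT5 and KRT17 rose, KRT8 and CDH1 fell, and EPCAM and KRT18 did not pass the test; their summed level was 5923 to 6328 TPM (length-scaled transcript abundance) with MS1943 and 4181 to 4252 TPM with DMSO. The leukocyte markers summed to 128 to 134 TPM with MS1943 and 189 to 190 TPM with DMSO. Of the 3 leukocyte markers tested, 1 was higher and 2 were lower. The pan-leukocyte marker PTPRC stayed at or below 0.152 CPM in every library. Fibroblast markers summed to 15.3 to 18 TPM with MS1943 and 10.7 to 12.7 TPM with DMSO, and endothelial markers to 2.32 to 2.60 TPM and 4.04 to 4.53 TPM; no marker of these lists was at 0 reads in all libraries, and their part in the annexin values was not tested. The receptors that define the triple-negative class were low or moderate. PGR had 0 reads in all 4 libraries. ESR1 had 4.83 and 5.11 CPM with MS1943 against 3.17 and 3.25 CPM with DMSO, and ERBB2 had 66.8 and 63.3 CPM against 82.0 and 81.6 CPM. The ESR1 rise did not pass with an offset for transcript length (log2 0.33, edgeR adjusted p = 0.138) or by limma on log2(TPM + 1) (log2 0.11, adjusted p = 0.422). The ERBB2 fall did not pass with protein-coding transcripts alone (log2 -0.09, edgeR adjusted p = 0.297) but did by limma on log2(TPM + 1) (log2 -0.54). EGFR, which this line carries at a very high level, had 6754 and 6285 CPM with MS1943 and 4289 and 4463 CPM with DMSO.

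All 10 annexins passed the filter on low counts. With MS1943, 5 rose (ANXA1, ANXA2, ANXA3, ANXA5 and ANXA7), 3 fell (ANXA8, ANXA9 and ANXA11), and ANXA4 and ANXA6 did not pass the test. Among all tested genes 59.3% were called, 30.0% higher and 29.4% lower, so the share of annexins called is read against a background in which most genes moved. Of the 10, 3 changed by more than 2-fold (ANXA1, ANXA3 and ANXA8), against 17.0% of all tested genes. The CPM ranges of the treatments did not overlap for any of the 10, as for 78.3% of all tested genes. The median log2 fold change over the 10 was 0.16, against -0.01 over all tested genes, and the median size of the change was 0.71, against 0.41. Because RNA was measured in bulk, fewer cells carrying a transcript and less transcript per cell cannot be told apart.

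**Figure D1:**
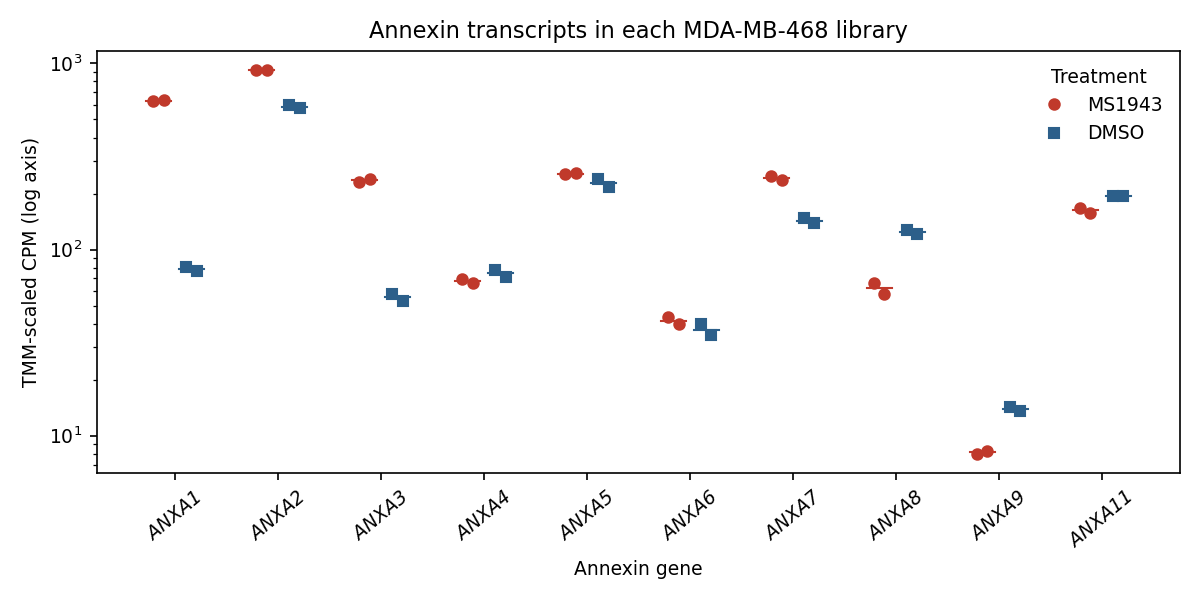
TMM-scaled CPM (log axis) of each annexin gene in the 2 MS1943 libraries (red circles) and the 2 DMSO libraries (blue squares); short lines are means. ANXA1 lies at 630 and 633 CPM with MS1943 and at 80.5 and 76.8 CPM with DMSO, while the treatments lie close together for ANXA4, ANXA5 and ANXA6.

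ANXA1, historically lipocortin, is a mediator of glucocorticoid action that dampens phospholipase A2 and leukocyte recruitment. It had 630 and 633 CPM in MS1943 libraries, against 80.5 and 76.8 CPM in DMSO libraries. Both treated libraries were far above both DMSO libraries, and the libraries of the treated pair were nearly equal. The log2 fold change was 3.01 ± 0.06 (SE), an 8.03-fold higher level with an edgeR adjusted p of 1.09e-17. It ranked 153rd highest by fold change of 14501 tested protein-coding genes. The gene (ENSG00000135046) lies on chromosome 9 at 73151757 to 73170393, plus strand, in hg38.

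ANXA3, a small annexin also known as lipocortin III and abundant in neutrophils, rose next most. It had 231 and 240 CPM with MS1943 against 57.7 and 53.2 CPM with DMSO. The pairs did not overlap, and the log2 fold change was 2.09 ± 0.06 (SE), or 4.25-fold, with an edgeR adjusted p of 7.60e-16. It ranked 298th highest by fold change among tested protein-coding genes. The gene (ENSG00000138772) lies on chromosome 4 at 78551519 to 78610451, plus strand.

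The promoter windows of the most strongly raised members differ in base composition, and they are shown here with that of ANXA9, a member that fell. Each is the RefSeq window of 300 bases on GRCh38.p14, from 250 bases before to 50 after the annotated start, read 5′ to 3′ on the gene's strand; capitals mark CG dinucleotides and the TATA box letters TATAAA. The windows are chr9:73151615-73151914 (plus) for ANXA1, chr4:78551520-78551819 (plus) for ANXA3 and chr1:150982042-150982341 (plus) for ANXA9. In the GENCODE annotation the most abundant transcripts start at 73151757 (ANXA1-201), 78551519 (ANXA3-201) and 150982017 (ANXA9-201). The ANXA3 and ANXA9 windows thus lie wholly after those starts, while the ANXA1 window holds its start. Which start the cells used was not tested.
ANXA1: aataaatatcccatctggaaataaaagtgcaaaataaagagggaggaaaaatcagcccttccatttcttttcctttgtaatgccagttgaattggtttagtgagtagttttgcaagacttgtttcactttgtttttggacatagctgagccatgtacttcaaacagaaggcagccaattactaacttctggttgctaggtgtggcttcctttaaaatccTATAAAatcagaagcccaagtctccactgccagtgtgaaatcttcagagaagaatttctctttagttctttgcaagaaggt
ANXA3: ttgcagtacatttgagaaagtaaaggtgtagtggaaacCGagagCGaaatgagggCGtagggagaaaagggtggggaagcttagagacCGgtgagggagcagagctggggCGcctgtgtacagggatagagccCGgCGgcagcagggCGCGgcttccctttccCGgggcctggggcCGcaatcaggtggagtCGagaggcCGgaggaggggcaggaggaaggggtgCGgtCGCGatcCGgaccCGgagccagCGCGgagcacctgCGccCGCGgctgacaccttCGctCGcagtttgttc
ANXA9: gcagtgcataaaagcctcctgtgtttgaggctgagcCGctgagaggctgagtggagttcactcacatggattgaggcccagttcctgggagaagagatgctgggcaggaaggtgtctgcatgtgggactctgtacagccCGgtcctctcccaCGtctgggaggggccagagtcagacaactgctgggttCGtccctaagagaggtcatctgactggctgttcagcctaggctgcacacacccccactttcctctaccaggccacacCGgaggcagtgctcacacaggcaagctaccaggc

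The ANXA1 window held 0 CG dinucleotides and 37.7% G or C, with TATAAA starting at position -31 from the RefSeq start. Of 35116 RefSeq windows of the same length, 3.96% also held none. The ANXA3 window held 25 CG dinucleotides at 64.7% G or C and no TATAAA, and the ANXA9 window held 5 at 59.0%; over all windows the median was 14, with quartiles of 4 and 28, and the median base composition was 58.7% G or C. RefSeq windows were matched for 9 of the 10 annexins, with several windows for ANXA4, ANXA6 and ANXA11. No window was matched for ANXA8, the member that fell most. 5 sets of letters were searched on both strands. TATAAA was present in a window of ANXA1, ANXA2 and ANXA11 and in 11.5% of all windows. The AP-1 letters TGANTCA were present in ANXA2 alone among the 9 and in 7.71% of all windows. The antioxidant response letters TGACNNNGC were present in ANXA7 alone and in 13.3% of all windows. CCAAT was present in windows of ANXA1, ANXA6, ANXA7 and ANXA11 and in 34.6% of all windows. The amino acid response letters TGATGNAA were in none of the annexin windows and in 3.62% of all windows. These matches describe the letters in the windows and not binding. For ANXA3 and ANXA9, the CG counts and the lack of TATAAA do not describe the bases before the GENCODE starts given above.

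ANXA2, which binds S100A10 and serves as a docking site for plasminogen and its activators, was the most abundant annexin. It had 922 and 922 CPM with MS1943 against 596 and 575 CPM with DMSO. The treated libraries were both higher, with a log2 fold change of 0.65 ± 0.06 (SE), or 1.57-fold, and an edgeR adjusted p of 1.36e-08. The gene (ENSG00000182718) lies on chromosome 15 at 60347134 to 60402883, minus strand. Its transcript ANXA2-204 shares 51.3% of its 31-base words with processed pseudogenes of ANXA2. Each pseudogene was assigned at most 8.02 reads in a library, against 39268 to 61311 for ANXA2. The log2 fold change was also 0.65 when reads of gene and pseudogenes were added, but with so few reads the sum could hardly differ.

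ANXA7, also called synexin, promotes fusion of granules with membranes. It had 249 and 238 CPM with MS1943 against 147 and 138 CPM with DMSO, so that the pairs were well apart. Its log2 fold change was 0.77 ± 0.06 (SE), or 1.70-fold, with an edgeR adjusted p of 7.78e-10. The gene (ENSG00000138279) is on chromosome 10 at 73375101 to 73414076, minus strand.

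ANXA5, the phosphatidylserine binder, differed little. It had 254 and 257 CPM with MS1943 against 238 and 217 CPM with DMSO. The pairs did not overlap, yet the gap between them was smaller than the gap between the DMSO libraries. The log2 fold change was 0.17 ± 0.06 (SE) with an edgeR adjusted p of 0.0199. This call was lost without MS1943 replicate 1 (log2 0.17, adjusted p = 0.0518), without MS1943 replicate 2 (log2 0.14, adjusted p = 0.0785) and without DMSO replicate 2 (log2 0.10, adjusted p = 0.152), and with scaling to total reads (log2 0.05, adjusted p = 0.328). The gene (ENSG00000164111) lies on chromosome 4 at 121667955 to 121697113, minus strand.

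ANXA6, an annexin with a longer core than the others and a regulator of cholesterol and endosome traffic, had 43.2 and 39.9 CPM with MS1943 against 39.8 and 34.6 CPM with DMSO. The lower treated library lay just above the higher DMSO library. The log2 fold change was 0.16 ± 0.07 (SE), with an unadjusted p of 0.0304 and an edgeR adjusted p of 0.0511. It passed the test without MS1943 replicate 2 (log2 0.20, adjusted p = 0.0253) and without DMSO replicate 1 (log2 0.26, adjusted p = 5.64e-04). The gene (ENSG00000197043) is on chromosome 5 at 151100712 to 151157882, minus strand.

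ANXA4, an annexin of secretory epithelia, had 69.2 and 66.1 CPM with MS1943 against 77.8 and 71 CPM with DMSO. Both treated libraries were lower, but the gap between the groups was smaller than the gap between the DMSO libraries. The log2 fold change was -0.14 ± 0.06 (SE), with an unadjusted p of 0.0331 and an edgeR adjusted p of 0.0551. It was called lower without MS1943 replicate 1 (log2 -0.18, adjusted p = 0.0365), without DMSO replicate 2 (log2 -0.21, adjusted p = 0.00216) and with scaling to total reads (log2 -0.25, adjusted p = 0.00118), and was at log2 -0.01 (adjusted p = 0.939) with an offset for transcript length. The gene (ENSG00000196975) lies on chromosome 2 at 69644425 to 69827100, plus strand, and overlaps AAK1 on the other strand, which rose by a log2 fold change of 1.05; the library kit does not mark strand, so reads in the overlap cannot be told apart by strand. The 4 main ANXA4 transcripts all start at 69741974 or later, past the end of AAK1 at 69674349.

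ANXA8 fell most. It is known as a vascular anticoagulant annexin and is found in basal and squamous epithelia. It had 66.1 and 57.9 CPM with MS1943 against 128 and 122 CPM with DMSO. Both treated libraries were far below both DMSO libraries, with a log2 fold change of -1.01 ± 0.06 (SE) and an edgeR adjusted p of 7.14e-11, so that the DMSO level was 2.01-fold that of MS1943. By fold change it ranked 1026th lowest of the tested protein-coding genes. The gene (ENSG00000265190) lies on chromosome 10 at 47460162 to 47484158, minus strand.

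ANXA8 has a near-identical copy, ANXA8L1, also on chromosome 10. The coding sequences of ANXA8-205 and ANXA8L1-204 are both 984 bases long in GENCODE 29 and were identical at 979 of them (99.5%). The stretch below, coding bases 499 to 558, is shown because it holds 2 of the 5 differences, in capitals; reads that miss such bases can be assigned to either gene.
ANXA8: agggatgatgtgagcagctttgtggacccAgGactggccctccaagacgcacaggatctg
ANXA8L1: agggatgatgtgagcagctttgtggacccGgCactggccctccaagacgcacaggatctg

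Of the 31-base words of ANXA8-205, 89.6% also occur in ANXA8L1, so the split of reads between them is uncertain. ANXA8L1 had 42.8 and 36.3 CPM with MS1943 against 102 and 95 CPM with DMSO, a log2 fold change of -1.31 ± 0.07 (SE) with an edgeR adjusted p of 5.59e-12. Added together, the 2 genes had a log2 fold change of -1.13. The pair thus fell as a sum, but the sum cannot show how much of the fall belonged to ANXA8 itself.

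ANXA9, an atypical annexin whose calcium-binding sites are degenerate, was the least abundant of the 10. It had 7.97 and 8.33 CPM with MS1943 against 14.2 and 13.5 CPM with DMSO. The treated pair was lower throughout, with a log2 fold change of -0.77 ± 0.09 (SE) and an edgeR adjusted p of 2.75e-07. The gene (ENSG00000143412) is on chromosome 1 at 150982017 to 150995634, plus strand.

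ANXA11, which tethers RNA granules to lysosomes and binds the penta-EF-hand protein ALG-2 (PDCD6), fell slightly. It had 168 and 158 CPM with MS1943 against 194 and 193 CPM with DMSO. The pairs did not overlap, and the log2 fold change was -0.25 ± 0.06 (SE) with an edgeR adjusted p of 8.05e-04. The gene (ENSG00000122359) lies on chromosome 10 at 80150889 to 80205572, minus strand. Apart from ANXA8L1, described above, the rest of the family was near silent. ANXA10 had 2 and 1 reads with MS1943 and 0 reads in both DMSO libraries and was not tested. ANXA13 was tested at 7 to 12 reads a library and did not pass.

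**Figure D2:**
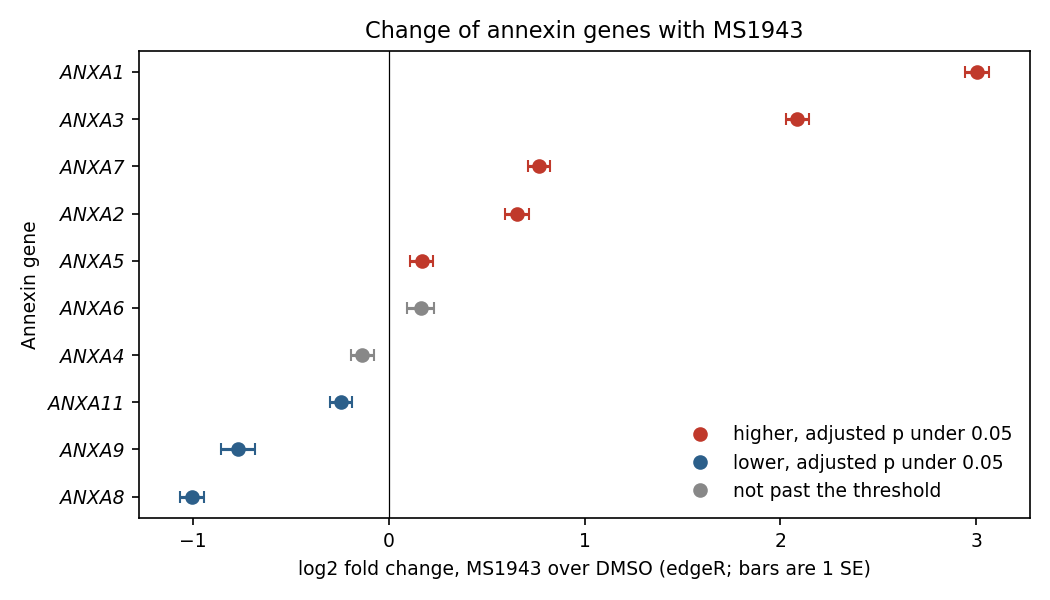
The log2 fold change of each annexin gene, MS1943 over DMSO, from edgeR, with bars of 1 SE and n = 2 libraries a group. The values run from -1.01 for ANXA8 to 3.01 for ANXA1, and ANXA4 and ANXA6 (grey) did not pass the threshold.

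On a scale that allows for transcript length, TPM, the order of the annexins changed with treatment. With MS1943 it ran ANXA2 (1105 ± 13.7 TPM, SD, n = 2), ANXA1 (668 ± 5.41 TPM), ANXA5 (235 ± 6.14 TPM), ANXA3 (225 ± 6.38 TPM), ANXA7, ANXA11, ANXA4, ANXA8, ANXA6 and ANXA9 (6.69 ± 0.22 TPM), and no neighbours in the order had overlapping ranges. With DMSO it ran ANXA2 (762 ± 6.27 TPM), ANXA5 (225 ± 7.82 TPM), ANXA11 (121.8 ± 3.80 TPM), ANXA7 (121 ± 2.46 TPM), ANXA8 (106 ± 1.22 TPM), ANXA1 (90.4 ± 0.11 TPM), ANXA4, ANXA3 (57.9 ± 1.04 TPM), ANXA6 and ANXA9 (12.5 ± 0.06 TPM), and ANXA11 and ANXA7 overlapped. ANXA1 thus took the second place with MS1943 and the sixth with DMSO.

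The 10 annexins summed to 2661 and 2686 TPM with MS1943, against 1616 and 1598 TPM with DMSO. The pooled annexin level was 1.66-fold higher with MS1943, and an exact two-sided permutation test gave p = 0.333, the smallest p that 2 libraries against 2 allow. Without ANXA1 the sums were 1996 and 2013 TPM with MS1943 and 1526 and 1508 TPM with DMSO, a ratio of 1.32. ANXA1 made up 25% of the annexin TPM with MS1943 and 5.63% with DMSO. ANXA2 made up 41.3% with MS1943 and 47.4% with DMSO, and ANXA8 made up 1.85% and 6.60%.

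**Figure D3:**
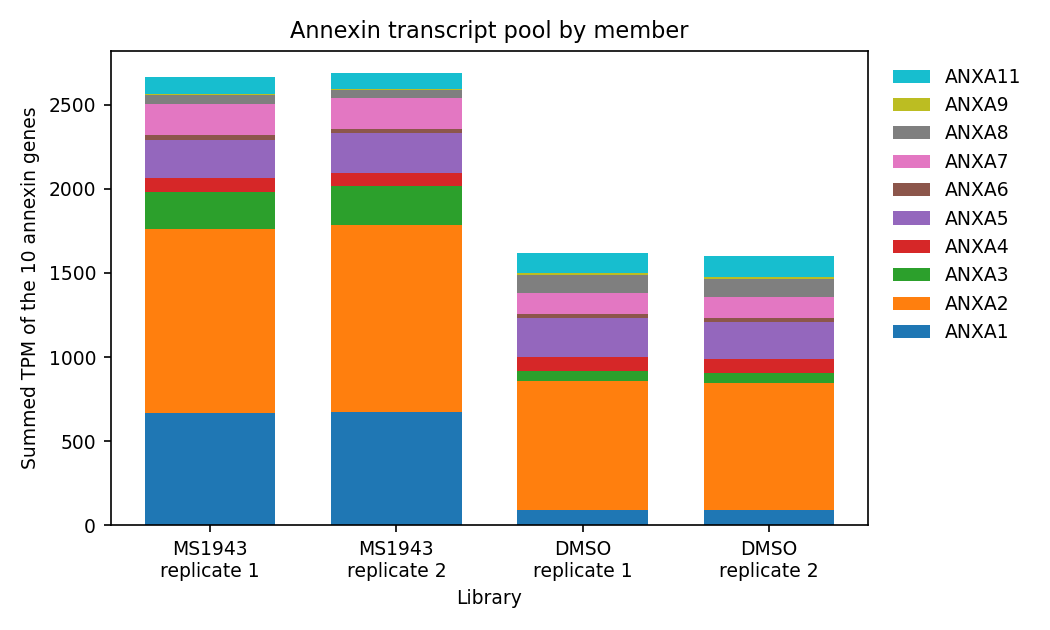
Summed TPM of the 10 annexin genes in each library, with MS1943 at left and DMSO at right, divided by gene. The bars reach 2661 and 2686 TPM with MS1943 and 1616 and 1598 TPM with DMSO, and the ANXA1 segment is the part that differs most.

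Transcripts were tested in the same way over 74941 transcripts, of which 12.4% were called, 6.23% higher and 6.21% lower. Of 118 annexin transcripts listed, 82 were tested, 12 were higher and 3 lower with MS1943. The counts were smaller when a library was left out: 7 called without MS1943 replicate 1, 6 without MS1943 replicate 2, and 9 without either DMSO replicate. Salmon shares reads between overlapping transcripts, so these values are less certain than those of genes. The main transcripts of ANXA1, ANXA2 and ANXA3 moved as their genes did. ANXA1-201 had a log2 fold change of 2.91 ± 0.06 (SE, edgeR adjusted p = 0.00174) and held 94.9% and 94.4% of ANXA1 TPM with MS1943 and 97.8% and 95.8% with DMSO. ANXA2-204 had 0.58 ± 0.05 (edgeR adjusted p = 0.00796), and ANXA3-201 had 2.08 ± 0.07 (edgeR adjusted p = 0.00298). ANXA5-201 held 91.6% and 88.9% of ANXA5 TPM with MS1943 and 93.1% and 92.2% with DMSO. It did not pass (log2 0.08 ± 0.07, edgeR adjusted p = 0.513), and none of the 8 tested ANXA5 transcripts was called. ANXA7-202 was higher (0.72 ± 0.14, edgeR adjusted p = 0.0429), while ANXA7-201 and ANXA7-205 did not pass. ANXA9-201 (-0.84 ± 0.11, edgeR adjusted p = 0.0188) and ANXA11-203 (-0.34 ± 0.06, edgeR adjusted p = 0.0404) were lower.

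The makeup of some genes differed in share between treatments. ANXA8-205 was lower, with a log2 fold change of -1.29 ± 0.10 (SE, edgeR adjusted p = 0.00749), and held 68.7% and 70.2% of ANXA8 TPM with MS1943 and 84.9% and 80.1% with DMSO; shares of this gene also carry the assignment error of its copy. ANXA4-201 held 35% and 32.1% of ANXA4 TPM with MS1943 and 43.7% and 40.6% with DMSO, but its log2 fold change of -0.38 ± 0.12 did not pass (edgeR adjusted p = 0.122). ANXA6-211 held 24.4% and 22.4% of ANXA6 TPM with MS1943 and 17% and 19.3% with DMSO, and its log2 fold change of 0.52 ± 0.16 did not pass either (edgeR adjusted p = 0.120). The shares of these transcripts did not overlap between treatments. The same held for other main transcripts, among them ANXA1-201, ANXA3-201 and ANXA5-201, while the shares of ANXA2-204 overlapped. How often shares fail to overlap over all transcripts was not counted, and the differences in share themselves were not tested.

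**Figure D4:**
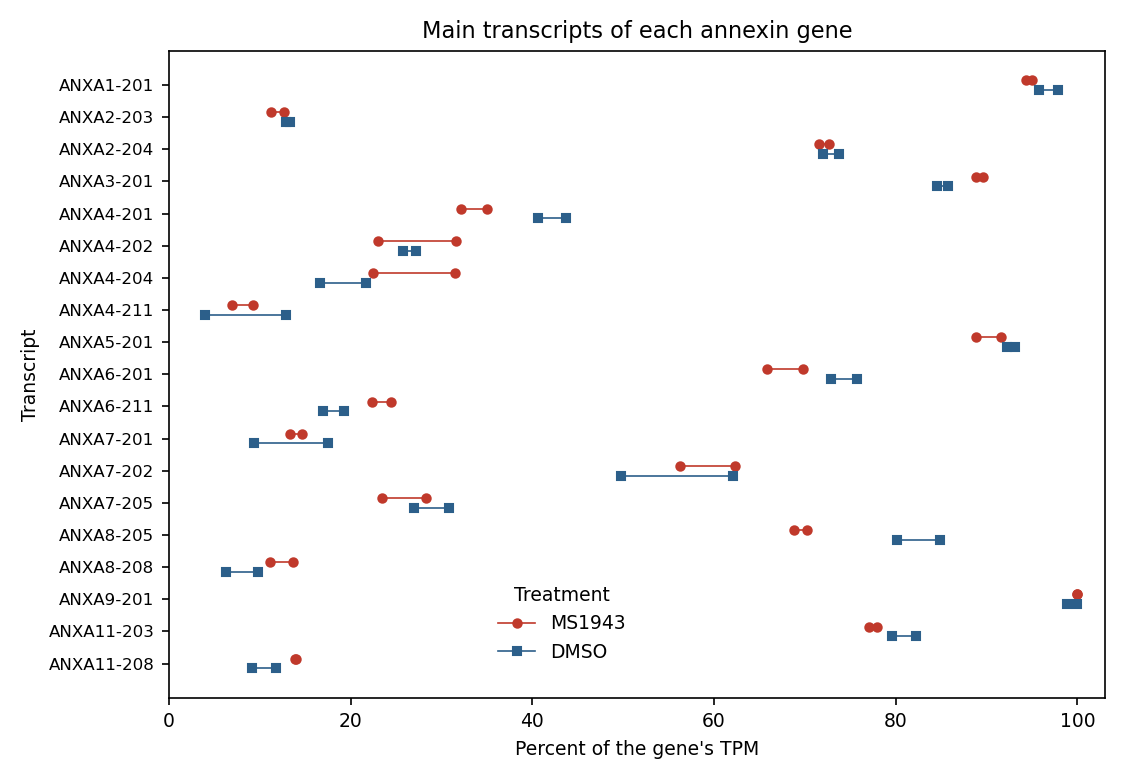
Percent of each gene's TPM held by its main transcripts in the 2 MS1943 libraries (red circles) and the 2 DMSO libraries (blue squares), with a line joining libraries of the same treatment. ANXA1-201 holds over 90% of its gene with either treatment, while ANXA8-205 holds less with MS1943 than with DMSO.

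Among partners of the annexins, the S100 proteins moved little. S100 proteins are small calcium sensors that clamp annexin tails. Of 5 tested, 1 rose and none fell in the edgeR fit. At an unadjusted p under 0.05, S100A6 was also higher and S100A4 lower, and DESeq2 called S100A6 higher as well and none lower. S100A4 was called lower with scaling to total reads (log2 -0.24, edgeR adjusted p = 5.54e-04). It was also called lower with protein-coding transcripts alone (log2 -0.22, edgeR adjusted p = 0.00151) and by limma on log2(TPM + 1) (log2 -0.28, adjusted p = 0.00723). These additional genes are named after their values were seen. S100A11, the partner of ANXA1, had 280 and 279 CPM with MS1943 against 210 and 208 CPM with DMSO, a log2 fold change of 0.42 ± 0.05 (SE, edgeR adjusted p = 1.83e-06), or 0.28 by limma on log2(TPM + 1). S100A10, the partner of ANXA2, had 129 and 144 CPM with MS1943 against 150 and 139 CPM with DMSO. Those ranges overlapped, and the log2 fold change of -0.08 ± 0.06 did not pass (edgeR adjusted p = 0.286), though it was called lower without MS1943 replicate 2 (adjusted p = 0.0371), without DMSO replicate 2 (adjusted p = 0.0361) and with scaling to total reads (adjusted p = 0.0142). The count of S100 genes called was 2 without MS1943 replicate 1, MS1943 replicate 2 or DMSO replicate 1, and 4 without DMSO replicate 2. The formyl peptide receptors, through which released ANXA1 signals, were near silent: FPR1 had at most 0.178 CPM and did not pass (unadjusted p = 0.307, edgeR adjusted p = 0.386), and FPR2 and FPR3 had too few reads to test.

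The genes of plasminogen activation, the surface protease system that ANXA2 docks, had a median log2 fold change of 0.93 with MS1943, against -0.01 over all tested genes. Of 8 tested, 5 rose and 2 fell, where 30.0% of all tested genes rose and 29.4% fell. PLAT, tissue plasminogen activator, had 3.55 and 2.80 CPM with MS1943 against 0.243 and 0.187 CPM with DMSO, a log2 fold change of 3.89 ± 0.25 (SE, edgeR adjusted p = 1.05e-10), which was 1.27 by limma on log2(TPM + 1), a scale that shrinks changes of low genes. PLAUR, the urokinase receptor, had 57.2 and 54.7 CPM with MS1943 against 30.7 and 30.3 CPM with DMSO, a log2 fold change of 0.88 ± 0.06 (edgeR adjusted p = 1.74e-10). PLAU, urokinase itself, had 20.2 and 20.0 CPM against 10.2 and 10.3 CPM, a log2 fold change of 0.98 ± 0.08 (edgeR adjusted p = 1.37e-09). All 3 were higher in both treated libraries. Plasminogen itself (PLG) stayed at or below 0.217 CPM.

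Genes of plasma membrane repair, in which annexins form the patch at a wound, moved in both directions. Of 20 tested, 5 rose and 11 fell, where 30.0% of all tested genes rose and 29.4% fell; the median log2 fold change was -0.29, against -0.01 over all tested genes, and the difference from that background was not tested. DYSF, dysferlin, a calcium sensor of repair, was higher, with 32.6 and 32.6 CPM with MS1943 against 5.86 and 5.44 CPM with DMSO. Its log2 fold change was 2.53 ± 0.08 (SE, edgeR adjusted p = 2.20e-15); it was 1.32 by limma on log2(TPM + 1) and 3.84 with protein-coding transcripts alone, higher in each. EHD1, a membrane-remodelling ATPase, had 127 and 131 CPM with MS1943 against 250 and 249 CPM with DMSO, a log2 fold change of -0.95 ± 0.05 (edgeR adjusted p = 1.85e-11). SYT7, a synaptotagmin that triggers lysosome exocytosis, had 78.9 and 69.8 CPM against 158 and 147 CPM, a log2 fold change of -1.04 ± 0.06 (edgeR adjusted p = 4.88e-11).

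Genes that move phosphatidylserine, the lipid annexins bind, held genes called in each direction. Of 10 tested, 5 rose and 3 fell, where 59.3% of all tested genes were called; 5 in all were called without MS1943 replicate 1. PLSCR1, a scramblase, had 221 and 227 CPM with MS1943 against 89.7 and 83.7 CPM with DMSO, a log2 fold change of 1.37 ± 0.06 (SE, edgeR adjusted p = 1.68e-13). ATP11A, a flippase, was higher by 0.68 ± 0.06 (edgeR adjusted p = 6.59e-09), and TMEM30A, the shared flippase subunit, was lower, at -0.33 ± 0.06 (edgeR adjusted p = 1.15e-04). Both kinds of mover thus held raised genes, and the flippase parts moved in opposite directions.

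Copines, another family of calcium-dependent membrane binders, had 2 higher and 1 lower of 6 tested; CPNE8 was higher, at 0.85 ± 0.07 (edgeR adjusted p = 3.04e-09, and 0.51 by limma on log2(TPM + 1)), CPNE1 was lower, at -0.26 ± 0.06 (edgeR adjusted p = 5.13e-04), and CPNE2 was at 0.15 (edgeR adjusted p = 0.0399), a call lost without MS1943 replicate 1 (log2 0.07, adjusted p = 0.447) and without DMSO replicate 2 (log2 0.11, adjusted p = 0.164). The intracellular phospholipases A2, the enzymes ANXA1 was first described as inhibiting, had 2 higher and 1 lower of 5 tested. PLA2G4C was higher, at 0.91 ± 0.10 (edgeR adjusted p = 1.98e-07) and PLA2G6 was lower, at -0.61 ± 0.12 (edgeR adjusted p = 2.01e-04); PLA2G4F was below 1 CPM in every library and its call was lost without MS1943 replicate 2 (adjusted p = 0.0722), with protein-coding transcripts alone (adjusted p = 0.0894) and by limma on log2(TPM + 1) (adjusted p = 0.181). Of 4 penta-EF-hand genes tested, SRI, which binds ANXA7, was lower, at a log2 fold change of -0.72 ± 0.07 (edgeR adjusted p = 1.67e-08). GCA was lower, at -0.29 ± 0.08 (edgeR adjusted p = 0.00421). The GCA call was lost without MS1943 replicate 1 (log2 -0.21) and with protein-coding transcripts alone (log2 -0.16, edgeR adjusted p = 0.156). PDCD6, the partner of ANXA11, did not pass in the main fit. It was called lower with scaling to total reads (log2 -0.20, edgeR adjusted p = 0.0101) and by limma on log2(TPM + 1) (log2 -0.29, adjusted p = 0.00993). The GCA value was -0.17 (adjusted p = 0.0426) without DMSO replicate 1 and -0.50 by limma on log2(TPM + 1).

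**Figure D5:**
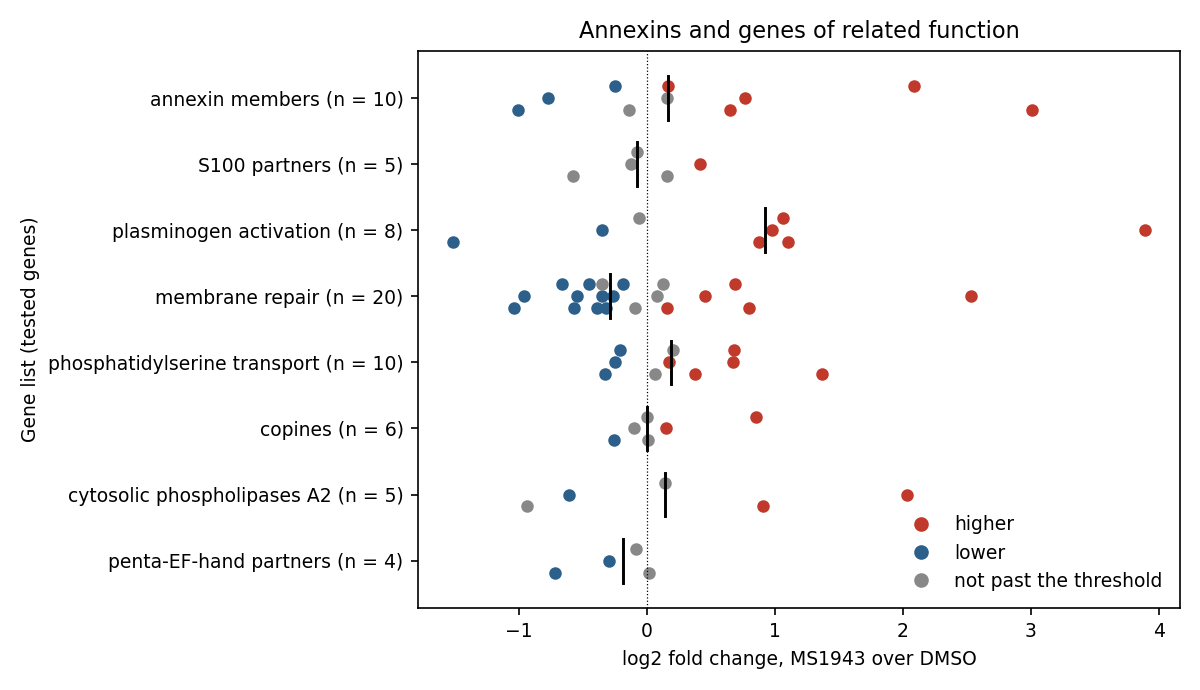
The log2 fold change, MS1943 over DMSO, of the annexins and of tested genes in 7 related lists; colour gives the edgeR call and black bars give list medians. The median is 0.93 for plasminogen activation and -0.29 for membrane repair, against 0.16 for the annexins.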

How the data were processed

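RNA-seq of 4 MDA-MB-468 libraries was analysed, grouped by the treatment label. Per the labels' protocols, libraries were made from poly(A) RNA with a TruSeq v2 kit, which does not mark strand. Per the submitters' processing notes, Salmon 0.9.1 and DESeq2 in R 3.4.3 were used on hg38; no annotation release is given in the sources used here. The deposited files give Salmon's estimated counts per transcript, per the file headers, which need not be whole. TPM, deposited alongside, is Salmon's length-scaled abundance, per the file headers. Effective lengths entered an alternative alone.

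Of 197653 listed transcripts, 193505 matched GENCODE 29; the other 4148, with 0.482% to 0.496% of reads, were left out. Counts were summed per gene and rounded. edgeR 4.0.16 in R 4.3.3 was run with TMM, filterByExpr and a treatment term alone, after tests on simulated data. The SE is the log2 fold change over the square root of F. A floor of 3 reads stands for 0.0420 to 0.0631 CPM and covers counting error only. DESeq2 1.42.0 and limma 3.58.1 served as alternatives. Same-treatment libraries differed beyond sampling noise (chi-square over its degrees of freedom 6.21 for MS1943 and 6.92 for DMSO), so none was counted as a copy. The members, lists and tests were chosen with earlier results of these data known. Genes named beside the members were up to 3 per list that passed, taken by smallest adjusted p, S100A10, S100A11, EZH2 and the receptors, the 3 protein-coding genes with the nearest profile to ANXA1 and to ANXA8, and transcripts with at least 10% of their gene's TPM.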

Additional observations from a re-analysis of the deposited data

How the results depend on the processing

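ANXA1, ANXA2, ANXA3, ANXA7, ANXA8, ANXA9 and ANXA11 kept their direction and call under every alternative run; the log2 fold change of ANXA1 ranged from 2.87 to 3.04, and that of ANXA8 from -1.13 to -0.93. Scaling to total reads put the median log2 fold change over all genes at -0.12, against -0.01 with TMM, and gave 4619 higher and 6973 lower genes, against 5799 and 5689; limma on log2(TPM + 1) gave 3747 higher and 5847 lower. ANXA4 was called lower with total reads, and also without the low-count filter (log2 -0.17, adjusted p = 0.0272) and, separately, with protein-coding transcripts alone (log2 -0.19, adjusted p = 0.0123). ANXA5 was not called with total reads, without that filter, or by limma on TPM (log2 0.06). ANXA6 was called higher with protein-coding transcripts alone (adjusted p = 0.0432), so that all 10 annexins were called in that setting. S100 partners called numbered 1, but 3 with total reads, 2 by DESeq2, 2 without the filter, and 2 to 4 with a library left out. Phosphatidylserine genes called numbered 8, but 5 by DESeq2 and 5 to 8 with a library left out; penta-EF-hand genes numbered 2, and 1 to 3 with a library left out. Annexin transcripts called numbered 15, and 6 to 9 with a library left out. The log2 ratio of summed annexin TPM was 0.73, 0.66 with ANXA10, ANXA13 and ANXA8L1 added, and 0.78 on TMM-scaled CPM. The causes were not tested. No paired analysis was possible because the labels give no replicate numbers; those used here follow accession order and only name the libraries. With 2 libraries a group, small changes such as those of ANXA4, ANXA5 and ANXA6 are at the limit of detection.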

Other observations

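Genes whose profile over the 4 libraries lay nearest to that of ANXA1, by Euclidean distance of centred log2 CPM among 11127 protein-coding genes outside the family, were SH3BGR (distance 0.076), HSPA1B (0.077) and HMOX1 (0.083). HMOX1, heme oxygenase, had 161 and 153 CPM with MS1943 against 18.9 and 18.8 CPM with DMSO, a log2 fold change of 3.06 ± 0.06 (SE, edgeR adjusted p = 5.78e-18). HSPA1B, an inducible HSP70, had 3892 and 3695 CPM with MS1943 against 502 and 477 CPM with DMSO; it has a near-identical copy, HSPA1A, so its own share of reads is uncertain. Nearest to ANXA8 were SLC29A4 (0.0089), APOL3 (0.016) and PIDD1 (0.038). SLC29A4, a monoamine transporter, had 8.97 and 7.80 CPM with MS1943 against 17.4 and 16.4 CPM with DMSO, a log2 fold change of -1.0 ± 0.09 (SE, edgeR adjusted p = 8.31e-09). With 4 libraries in 2 groups this likeness mostly reflects the size of the change.

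The tested genes next to the 8 called annexins moved with them in 7 of 16 cases, against them in 4, and did not pass in 5, where 59.3% of all tested genes were called, 30.0% higher and 29.4% lower; whether neighbours differ from that background was not tested. FRAS1, 7250 bases from ANXA3, had a log2 fold change of 0.79 ± 0.08 (SE, edgeR adjusted p = 9.47e-08). ALDH1A1, 71315 bases from ANXA1, was higher by only 0.16 ± 0.06 (edgeR adjusted p = 0.0263). ZNF488, next to ANXA8, was lower, at -1.19 ± 0.13 (edgeR adjusted p = 2.80e-07), while AGAP9 on its other side was higher, at 0.46 ± 0.11 (edgeR adjusted p = 9.11e-04). MINDY1, 452 bases from ANXA9, was lower, at -0.36 ± 0.07 (edgeR adjusted p = 1.00e-04). The neighbours named here were chosen after their values were seen.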
